A study of Mus musculus with 18 samples.

Results

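The MAP kinase feedback genes examined here were 10 mouse genes that encode inducible dual-specificity phosphatases (Dusp1, Dusp2, Dusp4, Dusp5, Dusp6, Dusp8 and Dusp10) and inhibitors of receptor tyrosine kinase signalling (Spry1, Spry2 and Spred1). They were found by gene symbol, as every probe set of the array whose annotation gives that symbol and no other. Of the 10 genes, 8 had such a probe set, 12 probe sets in all, while Dusp4 and Dusp5 were not analysed here. A gene was tested where a probe set was above a log2 value of 4 in at least 3 of the 18 samples, which 7 of the 10 genes met, among 7092 genes on the array that did so. Dusp2 stayed below that level in all 18 samples, at 2.31 to 3.53, and was not tested.

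The samples were aortas of male wild type C57Bl/6 mice. All the mice, controls included, had received spironolactone, an antagonist of the mineralocorticoid receptor, at 20 mg/kg/day for 5 days from a subcutaneous pellet. The aortas were then held in organ culture in DMEM for 2, 4 or 8 h with vehicle or with 100 nM aldosterone, the adrenal hormone that activates that receptor. RNA was taken from pools of 3 aortas, with 3 pools in each of the 6 groups, so every value stands for animals that had been given the antagonist and for vessels out of the body, with no sample taken before culture among those analysed here. No source used here gives the age of the mice. The values are log2 expression estimates from 1-colour Affymetrix arrays. Differences below are on that log2 scale with their standard error, and adjusted p-values come from limma with Benjamini-Hochberg adjustment over the 7092 genes at a threshold of 0.05.

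In the MAP kinase cascades a growth factor, cytokine or stress signal passes through successive kinases to ERK, JNK or p38, which enter the nucleus and switch on immediate early genes. Among the genes switched on are the brakes of the same cascades. The dual-specificity phosphatases remove the activating phosphates from the MAP kinases themselves, and the Sprouty and Spred proteins act further up, between the receptor and Raf. In vascular smooth muscle these brakes are known to follow mitogens, stretch and injury, and Dusp1 is also a textbook target of corticosteroid hormones.

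The tissue label was checked against marker genes. All 9 smooth muscle markers listed were above the level of 4 in at least 3 samples, with Acta2, the smooth muscle actin, at a mean of 14.5, and so were 7 of 8 endothelial, 7 of 7 fibroblast, 5 of 6 adipocyte and 7 of 7 macrophage markers with a probe set. Only 1 of 5 lymphocyte and 2 of 7 cardiac and skeletal muscle markers were. The library of vehicle 2 h replicate 1 stood apart, with 908 of the 7092 genes (12.8%) more than 1 log2 unit from the mean of the other pools of its group, against 17 to 239 genes in the other 17 libraries. Its median over all probe sets was 4.42, against 4.01 to 4.09 in the others. Results that use the vehicle 2 h group are given without it too where a direction, a call or a count changes. Counts of marker genes were not taken again without it. Among known corticosteroid targets, Fkbp5, which encodes a co-chaperone of steroid receptors, was higher with aldosterone by 1.90 ± 0.26 at 4 h and by 2.80 ± 0.26 at 8 h.

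**Figure D1:**
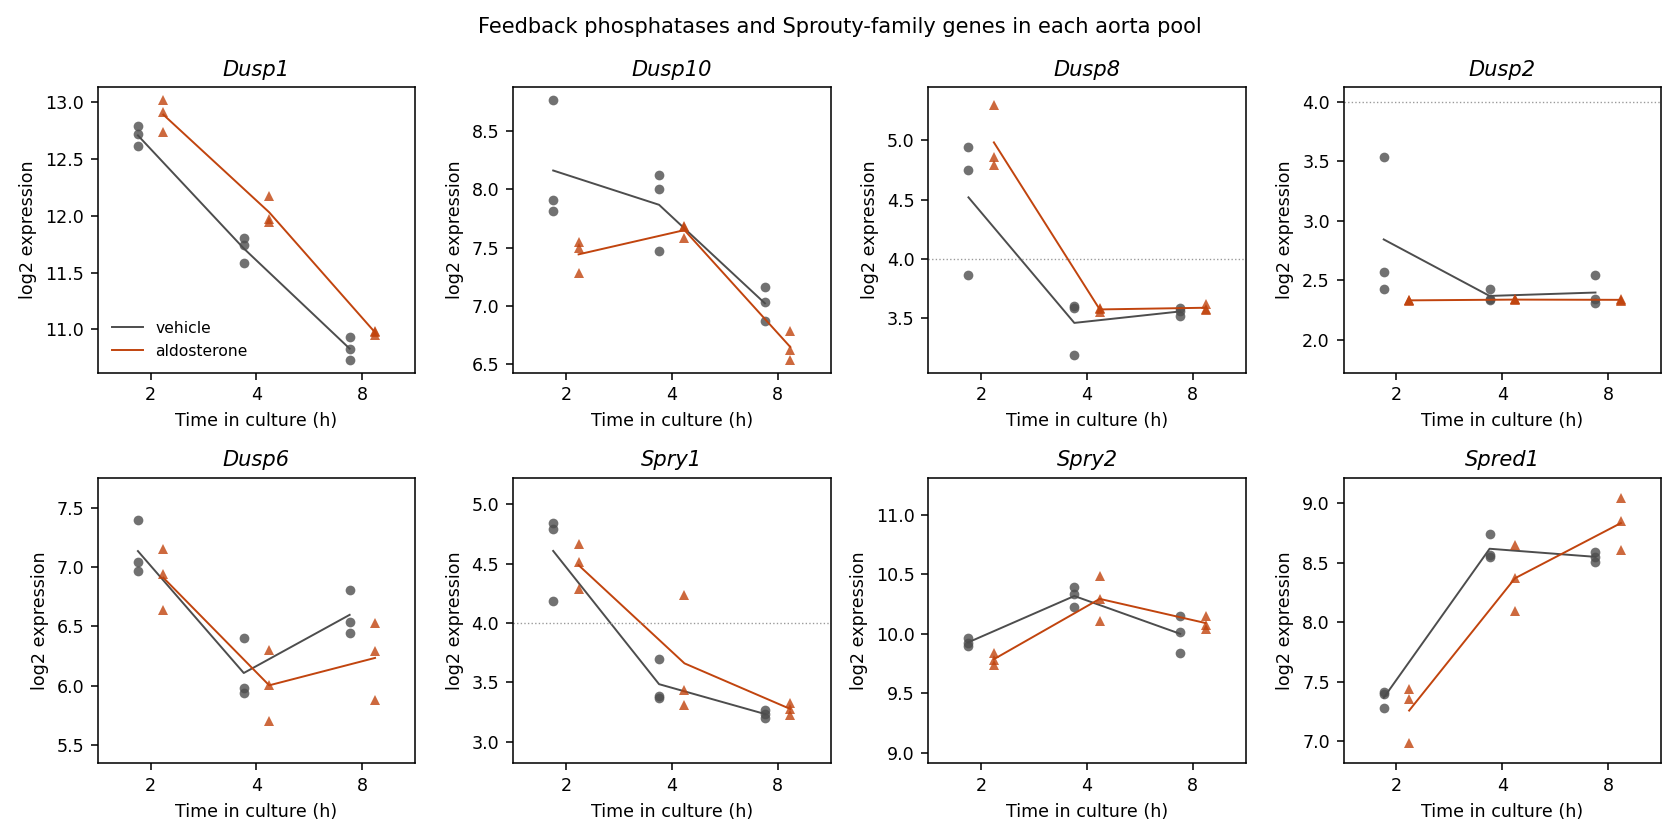
Log2 expression (vertical axes, each panel on its own scale) of the 8 measured genes against time in culture (2, 4 and 8 h). Each symbol is a pool of 3 aortas, circles for vehicle and triangles for aldosterone, lines join the means of 3 pools, and the dotted line marks the level of 4 where it falls in the panel. Dusp1 stepped down at each time, from values between 12.62 and 13.02 at 2 h to values between 10.73 and 10.99 at 8 h, while Spred1 went up from between 6.98 and 7.44 at 2 h to between 8.51 and 9.05 at 8 h.

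Most of these genes changed between the times in culture, in the same direction with and without the hormone. Between 2 and 4 h in vehicle, 6 of the 7 tested genes passed the threshold: Dusp1, Dusp6, Dusp8 and Spry1 fell, and Spry2 and Spred1 rose. The background was wide, since 40.2% of all 7092 genes passed in that comparison. In the aldosterone cultures, which share no sample with the vehicle cultures, the same 6 genes passed with the same signs, where 38.6% of all genes passed and 28.7% did so in both cultures with the same sign. Dusp8 was above the level of 4 only in pools at 2 h, and Spry1 in those and in 1 pool at 4 h. Both were thus tested because of the time at which they were high, which favours a fall. With a filter at 6 they were not tested, and 4 genes passed in each culture. Between 4 and 8 h, 3 of 7 passed in vehicle (background 37.7%) and 3 of 7 in aldosterone (background 37.5%), a share close to the background. Dusp1 and Dusp10 fell in both cultures over that step, where 29.5% of all genes passed in both with the same sign. In bulk tissue, fewer cells of a type and less RNA per cell cannot be told apart.

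Dusp1 encodes the nuclear phosphatase that acts on p38, JNK and ERK. Its level was 12.62, 12.79 and 12.72 in the 3 vehicle pools at 2 h, 11.81, 11.75 and 11.58 at 4 h, and 10.73, 10.82 and 10.94 at 8 h. With aldosterone it was 12.91, 12.74 and 13.02 at 2 h, 12.18, 11.97 and 11.94 at 4 h, and 10.98, 10.95 and 10.99 at 8 h. No pool of a later time reached the lowest pool of the time before it in the same culture. Such a separation downward from 2 to 4 h was seen in 28.8% of all genes in vehicle and 30.9% with aldosterone. From 4 to 8 h it was seen in 24.1% and 25.6%. Without vehicle 2 h replicate 1 the first of these shares was 31.9%. In vehicle Dusp1 fell by 0.99 ± 0.10 from 2 to 4 h (adjusted p = 1.051e-06) and by 0.88 ± 0.10 from 4 to 8 h (adjusted p = 3.509e-06). With aldosterone it fell by 0.86 ± 0.10 and then by 1.06 ± 0.10 (adjusted p = 5.931e-06 and 5.908e-07). From 2 to 8 h the level thus went down 3.67-fold in vehicle and 3.77-fold with aldosterone. Of all 7092 genes, 7.63% fell at both steps in vehicle and 6.84% did so with aldosterone, and Dusp1 was the only tested gene of the group that fell at both steps.

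Dusp8 encodes a phosphatase that prefers JNK and p38. In vehicle it was at 3.86, 4.75 and 4.94 at 2 h, and the 3 aldosterone pools of that time were at 5.30, 4.86 and 4.79. In the 12 pools taken at 4 and 8 h it lay between 3.19 and 3.62, so it was above the level of 4 only at 2 h. Because the later values lie under that level, the change is a lower bound: Dusp8 fell at least 1.43-fold from 2 to 4 h in vehicle and at least 1.97-fold with aldosterone. The limma adjusted p-values, 0.001209 and 0.0001135, belong to the fitted differences of -1.06 and -1.40, which use values under that level. Dusp8 was tested only because of its pools at 2 h, which favours a fall. The low vehicle pool at 2 h is the library that stands apart, and without it the fitted fall in vehicle was by 1.38 in place of 1.06.

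Dusp10 encodes a phosphatase of JNK and p38, and its time course differed from that of Dusp1. Its vehicle values were 8.77, 7.91 and 7.81 at 2 h, 8.01, 8.13 and 7.47 at 4 h, and 7.04, 7.16 and 6.87 at 8 h. With aldosterone they were 7.55, 7.28 and 7.50 at 2 h, 7.59, 7.69 and 7.68 at 4 h, and 6.54, 6.78 and 6.62 at 8 h. The pools of 2 and 4 h overlapped in vehicle, and every pool at 8 h lay below every pool at 4 h of the same culture. Over that later step 24.1% of all genes were so separated downward in vehicle and 25.6% with aldosterone. The difference from 2 to 4 h did not pass in vehicle, at -0.29 ± 0.21, or with aldosterone, at 0.21 ± 0.21. The vehicle value rests on the library that stands apart and was 0.01 without it. From 4 to 8 h Dusp10 fell by 0.85 ± 0.21 in vehicle (adjusted p = 0.004782) and went from a mean of 7.65 to 6.65 with aldosterone (adjusted p = 0.001339). Its other probe set, fitted among all 11236 probe sets past the filter, fell by 1.47 and 1.04 over the same step.

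Dusp6 encodes the cytoplasmic phosphatase that acts on ERK and is often read as a gauge of ERK activity. It was at 7.40, 6.96 and 7.04 in vehicle at 2 h, 6.40, 5.98 and 5.94 at 4 h, and 6.44, 6.54 and 6.81 at 8 h. The aldosterone pools were at 6.64, 7.15 and 6.94, then 5.70, 6.31 and 6.01, then 6.53, 6.29 and 5.88. All pools at 4 h were below all pools at 2 h. Within a culture, 28.8% of all genes were so separated in vehicle and 30.9% with aldosterone. Without vehicle 2 h replicate 1 the vehicle share was 31.9%. The fall from 2 to 4 h was by 1.03 ± 0.21 in vehicle and by 0.90 ± 0.21 with aldosterone (adjusted p = 0.001129 and 0.003024), and without vehicle 2 h replicate 1 it was by 0.89 in vehicle. From 4 to 8 h the vehicle pools did not overlap, as in 53% of all genes, 28.8% in the upward direction. They differed by 0.49 ± 0.21 in the upward direction, short of the threshold (adjusted p = 0.07921). The aldosterone pools overlapped, with a difference of 0.23 ± 0.21. The vehicle difference passed with median centring, at 0.53 (adjusted p = 0.041), and without vehicle 4 h replicate 1, at 0.64 (adjusted p = 0.04696).

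Spry1 encodes a Sprouty protein that blocks growth factor signalling to Ras and ERK. It was at 4.84, 4.18 and 4.79 in vehicle at 2 h, and at 4.28, 4.51 and 4.66 with aldosterone. At 4 h, 1 aldosterone pool was at 4.23, and the other pools of both cultures were between 3.31 and 3.70. At 8 h all 6 pools were between 3.20 and 3.33. Spry1 fell at least 1.52-fold from 2 to 4 h in vehicle. The limma adjusted p of 0.0007118 belongs to the fitted difference of -1.12, which uses values under the level of 4. With aldosterone the fitted fall was by 0.83 ± 0.22 (adjusted p = 0.00681). There only 1 of the 3 pools at 4 h was above that level, so the size of the fall is uncertain. Spry1 was tested through its pools at 2 h and that 1 pool, which favours a fall.

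Spry2 encodes another Sprouty protein, and it rose as Spry1 fell. In vehicle it was at 9.92, 9.97 and 9.90 at 2 h, 10.34, 10.22 and 10.39 at 4 h, and 9.84, 10.01 and 10.15 at 8 h. With aldosterone it was at 9.78, 9.84 and 9.74 at 2 h, 10.48, 10.11 and 10.29 at 4 h, and 10.08, 10.04 and 10.15 at 8 h. The pools at 4 h were above those at 2 h in both cultures without overlap, although the shift was small. Of all genes, 14.7% were so separated upward in vehicle (28.8% without vehicle 2 h replicate 1) and 27% with aldosterone. The rise from 2 to 4 h was 0.39 ± 0.11 in vehicle and 0.51 ± 0.11 with aldosterone (adjusted p = 0.008542 and 0.001445). Fitted on the vehicle 2 and 4 h samples alone, the vehicle rise did not pass (adjusted p = 0.07207). From 4 to 8 h Spry2 fell by 0.32 ± 0.11 in vehicle (adjusted p = 0.02701), a call that was lost in 5 of 28 alternatives, among them median centring and leaving out vehicle 4 h replicate 1 or 3 or vehicle 8 h replicate 1 or 2, with adjusted p-values of 0.055 to 0.132. A second Spry2 probe set was between 2.07 and 2.19 in all 18 samples and so stayed below the level of 4.

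Spred1 encodes a Sprouty-related protein that brings neurofibromin to the membrane to switch Ras off, and of the 7 genes it had the largest rise from 2 to 4 h in both cultures. In vehicle it was at 7.42, 7.28 and 7.40 at 2 h, 8.57, 8.74 and 8.55 at 4 h, and 8.51, 8.59 and 8.55 at 8 h. With aldosterone it was at 7.44, 7.35 and 6.98 at 2 h, 8.65, 8.37 and 8.09 at 4 h, and 9.05, 8.85 and 8.61 at 8 h. Every pool at 4 and 8 h was above every pool at 2 h. From 2 to 4 h, 14.7% of all genes were separated upward in vehicle and 27% with aldosterone. Without vehicle 2 h replicate 1 the vehicle share was 28.8%. From 2 to 4 h Spred1 rose 2.38-fold in vehicle, by 1.25 ± 0.16, and 2.16-fold with aldosterone, by 1.11 ± 0.16 (adjusted p = 1.115e-05 and 3.842e-05). From 4 to 8 h it did not pass in vehicle, at -0.07 ± 0.16, and it rose by 0.46 ± 0.16 with aldosterone (adjusted p = 0.02605). That last call was lost in 7 of 28 alternatives, among them leaving out aldosterone 4 h replicate 2 or 3 or aldosterone 8 h replicate 1 or 2, with adjusted p-values of up to 0.1422. A second Spred1 probe set rose by 0.93 in vehicle and by 1.40 with aldosterone from 2 to 4 h, and another, dim one did not pass, at 0.48 and 0.45. From 4 to 8 h the second set changed by 0.40 in vehicle and 0.43 with aldosterone, and the dim one by 0.23 and -0.03, none past the threshold. The other probe sets thus did not share the contrast between the cultures over that step.

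**Figure D2:**
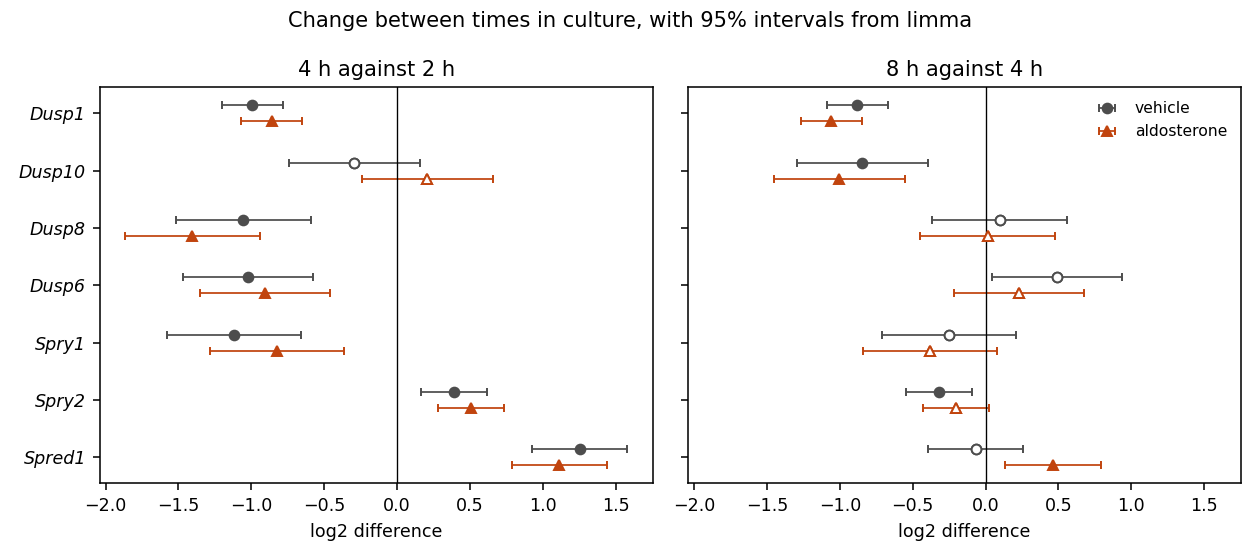
Log2 difference between successive times (horizontal axis, 4 h minus 2 h on the left and 8 h minus 4 h on the right) for the 7 tested genes, as circles for vehicle and triangles for aldosterone, with 95% intervals from limma over 3 pools a group. Filled symbols passed the adjusted threshold and open ones did not, and the 6 genes that passed in the left panel lie on the same side of 0 in both cultures.

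Cell type markers moved over the same times, as did the median of the whole array in vehicle with all 18 samples. From 2 to 4 h in vehicle, 3 of 9 smooth muscle, 5 of 7 endothelial, 2 of 7 fibroblast, 4 of 5 adipocyte and 4 of 7 macrophage markers tested fell and none rose, where 25.6% of all genes fell and 14.6% rose. The smooth muscle and fibroblast shares lie near that of all genes. These vehicle counts were not taken again without vehicle 2 h replicate 1. With aldosterone 3 of 9 smooth muscle, 4 of 7 endothelial, 1 of 7 fibroblast, 3 of 5 adipocyte and 5 of 7 macrophage markers fell. None of them rose, where 21.3% of all genes fell and 17.3% rose. The mean log2 level of the macrophage list was 6.96 to 7.95 in the vehicle pools at 2 h and 5.44 to 5.76 at 8 h, and that of the fibroblast list 11.02 to 11.11 and then 9.58 to 10.01. The smooth muscle list lay between 11.2 and 11.4 at 2 h and between 10.2 and 10.6 at 8 h, and the endothelial list between 6.79 and 7.57 and then between 6.12 and 6.22. The adipocyte list lay between 8.27 and 9.33 at 2 h, between 7.43 and 7.63 at 4 h and between 7.49 and 7.77 at 8 h. Their part in the results over time was not tested. The median change of all 7092 genes from 2 to 4 h in vehicle was -0.13, and -0.02 without vehicle 2 h replicate 1. With aldosterone it was -0.04. Centring each array on its median moved the vehicle value by 0.13 and the share of rising genes among the vehicle calls from 36.4% to 49.3%. None of the 6 genes that passed changed direction with it. Without vehicle 2 h replicate 1, 2 of the 7 genes were still called higher and 4 lower from 2 to 4 h in each culture (background 39.8% in vehicle and 48.1% with aldosterone), and 3 were called from 4 to 8 h in each (background 47.4% and 47.8%).

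The promoters of Dusp1 and Dusp8 share an element that most promoters lack. In the 300-base window from 250 bases before to 50 bases after the RefSeq start site, both hold the full cyclic AMP response element (CRE), TGACGTCA, which is bound by CREB and ATF proteins. It was in 2 of the 9 windows of these genes that the RefSeq table holds (Dusp4 has none there) and in 1.79% of all 32851 windows. With the start site as 0, Dusp1 has 1 copy at -143 to -136 and Dusp8 has 2, at -107 to -100 and at -63 to -56. The upstream 250 bases of both are shown because they hold it. Those of Dusp6 and Spry1, which fell over the same step and have neither the element nor its core, of Dusp10, which fell later, and of Spred1, which rose, are shown beside them, 5′ to 3′ on the gene's strand in GRCm38.p6. Capitals mark matches to the CRE, its core TGACG on either strand, the E-box CACGTG and the NF-Y box CCAAT on either strand.
Dusp1 promoter, chr17:26508473-26508722, minus strand: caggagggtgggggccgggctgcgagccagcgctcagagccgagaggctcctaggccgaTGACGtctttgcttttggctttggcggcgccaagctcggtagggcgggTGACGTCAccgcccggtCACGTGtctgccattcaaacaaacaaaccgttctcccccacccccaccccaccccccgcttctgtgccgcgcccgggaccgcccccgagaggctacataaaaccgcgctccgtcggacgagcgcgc
Dusp8 promoter, chr7:142095285-142095534, minus strand: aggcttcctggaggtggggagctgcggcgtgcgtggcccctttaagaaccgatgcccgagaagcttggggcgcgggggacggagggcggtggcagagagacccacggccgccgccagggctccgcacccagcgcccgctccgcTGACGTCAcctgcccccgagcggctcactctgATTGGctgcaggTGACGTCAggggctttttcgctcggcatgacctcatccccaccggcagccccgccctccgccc
Dusp6 promoter, chr10:99262981-99263230, plus strand: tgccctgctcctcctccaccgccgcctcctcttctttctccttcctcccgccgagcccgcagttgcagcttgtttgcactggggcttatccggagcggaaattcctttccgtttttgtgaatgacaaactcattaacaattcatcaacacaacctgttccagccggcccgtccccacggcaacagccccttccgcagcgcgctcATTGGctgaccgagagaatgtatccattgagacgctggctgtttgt
Spry1 promoter, chr3:37639697-37639946, plus strand: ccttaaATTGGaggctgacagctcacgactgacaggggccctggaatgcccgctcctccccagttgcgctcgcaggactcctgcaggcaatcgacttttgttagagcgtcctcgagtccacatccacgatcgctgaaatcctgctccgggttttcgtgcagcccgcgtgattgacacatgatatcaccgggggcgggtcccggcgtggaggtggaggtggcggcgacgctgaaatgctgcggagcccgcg
Dusp10 promoter, chr1:184034131-184034380, plus strand: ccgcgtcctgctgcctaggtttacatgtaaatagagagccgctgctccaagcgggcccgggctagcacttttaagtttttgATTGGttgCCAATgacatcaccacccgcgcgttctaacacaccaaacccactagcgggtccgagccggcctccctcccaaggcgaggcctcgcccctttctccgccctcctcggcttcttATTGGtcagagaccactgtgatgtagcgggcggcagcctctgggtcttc
Spred1 promoter, chr2:117120821-117121070, plus strand: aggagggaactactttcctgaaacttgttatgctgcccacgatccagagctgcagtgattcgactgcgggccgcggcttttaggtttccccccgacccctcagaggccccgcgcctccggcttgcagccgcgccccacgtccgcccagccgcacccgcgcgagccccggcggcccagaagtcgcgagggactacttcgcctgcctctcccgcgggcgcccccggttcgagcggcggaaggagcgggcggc
The Spred1 line has no capitals because none of the 10 motifs searched occurred in its window. The core TGACG was in 4 of 9 windows (Dusp1, Dusp2, Dusp5 and Dusp8), against 20.8% of all windows, and every full CRE holds it once on each strand. The NF-Y box was in 4 of 9 (Dusp6, Dusp8, Dusp10 and Spry1), against 37.4%, with 4 copies in the Dusp10 window, 3 of them in the upstream part shown. The E-box was in Dusp1 and Dusp2, against 7.15% of all windows. The CArG box, the site of serum response factor, was in the Dusp5 window alone, against 1.63%, and the ETS site CCGGAA in that of Spry2 alone, against 14.9%. The AP-1 site TGANTCA (7.81% of all windows), TATAAA (13.6%), the full glucocorticoid response element (0.00913%) and its single arm AGAACA (19.0%) had no match in the 9 windows, all searched on both strands. Of the 4 genes that fell from 2 to 4 h, 2 hold the CRE and 2 do not. These are matches of letters in a short window and do not show that a factor binds.

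**Figure D3:**
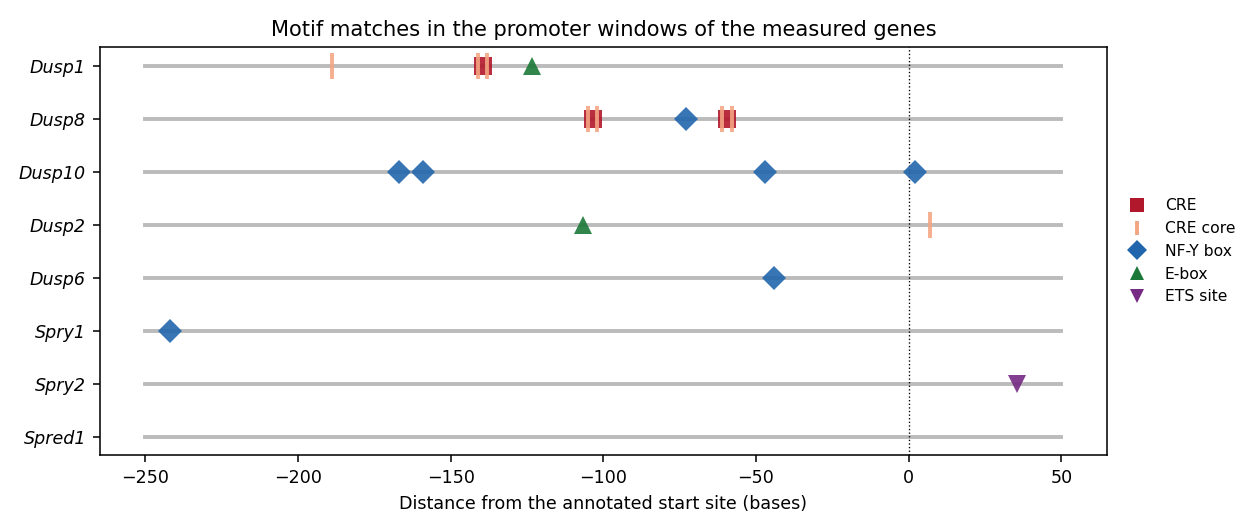
Positions of motif matches (symbols) in the promoter windows of the 8 measured genes, by distance in bases from the annotated start site (horizontal axis, 250 bases before to 50 after it; the dotted line is the start). Squares mark the CRE, bars its core, diamonds the NF-Y box, upward triangles the E-box and the downward triangle the ETS site; squares occur in the Dusp1 and Dusp8 rows.

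With aldosterone at 100 nM, 0 of the 7 tested genes passed the threshold at 2, 4 or 8 h or in the mean of the 3 times. The share of all genes called by limma was 0.0705% at 2 h, 0.24% at 4 h, 1.0% at 8 h and 1.1% in the mean, so few genes of any kind were called. Without vehicle 2 h replicate 1 it was 0 of the 7 again, with 0.409%, 0.451%, 1.57% and 2.06% of all genes called. At an unadjusted p under 0.05 there was 1 of the 7 at 2 h (11.0% of all genes), 1 at 4 h (3.76%), 0 at 8 h (6.26%) and 2 in the mean of times (8.43%). The test of a difference in the hormone effect between the times called 0 of the 7, at adjusted and at unadjusted p, with 0.155% and 5.92% of all genes called. In the same arrays, 6 of 13 tested genes of a corticosteroid response list rose at 4 h, 8 rose at 8 h, none fell, and at 2 h 0 passed. Without vehicle 2 h replicate 1 the counts that rose were 2 at 2 h, 8 at 4 h and 8 at 8 h. That list, like the others, was chosen with earlier results of these data known. Zbtb16, a zinc finger repressor, was higher by 2.82 ± 0.19 at 8 h.

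Dusp1 had the smallest adjusted p of the 7 in the mean over times, and Dusp10 the smallest at 2 h. Dusp1 was higher with aldosterone by 0.18 ± 0.10 at 2 h, 0.32 ± 0.10 at 4 h and 0.14 ± 0.10 at 8 h. The aldosterone pools were above all vehicle pools at 4 h, where 5.8% of all genes showed such a separation upward, and at 8 h, where 9.11% did, and they overlapped the vehicle pools at 2 h. The mean over the 3 times was 0.21 ± 0.06 with a 95% interval of 0.09 to 0.34, a 1.16-fold difference that did not pass (adjusted p = 0.1015). With array weights, which give less influence to noisier libraries, the mean was 0.19 and passed (adjusted p = 0.03085).

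Dusp10 was lower with aldosterone at each time, by -0.72 ± 0.21 at 2 h, -0.22 ± 0.21 at 4 h and -0.38 ± 0.21 at 8 h. Its aldosterone pools were below all vehicle pools at 2 h and at 8 h, where 10.5% and 5.36% of all genes were so separated, and overlapped them at 4 h. The difference at 2 h was -0.42 ± 0.17 (adjusted p = 0.2546) without vehicle 2 h replicate 1, whose Dusp10 value of 8.77 is the highest of the 18. The mean over times was -0.44 ± 0.12 with an interval of -0.70 to -0.18 (adjusted p = 0.1329), and -0.34 without that library (adjusted p = 0.06394). It passed with array weights, at -0.37 (adjusted p = 0.01418), and after a further quantile normalization, at -0.44 (adjusted p = 0.02679). The other Dusp10 probe set differed by -0.83 at 2 h, -0.39 at 4 h and 0.04 at 8 h, so it did not share the difference at 8 h.

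By the probe set that stood for each gene, the other 5 genes gave intervals that include 0 at each time and in the mean. Dusp6, the ERK phosphatase, differed by -0.23 ± 0.12 in the mean, with an interval of -0.49 to 0.03. Dusp8 differed by 0.46 ± 0.22 at 2 h, and by 0.13 without vehicle 2 h replicate 1. The mean difference was 0.03 ± 0.13 for Spry1, with an interval of -0.23 to 0.30, and -0.03 ± 0.06 for Spry2, with an interval of -0.16 to 0.11. The 3 Spry2 pools with aldosterone at 2 h were all below the vehicle pools, by 0.14 in the mean. Of all genes, 10.5% were so separated downward at 2 h, and 13.6% without vehicle 2 h replicate 1. Spred1 differed by -0.11 ± 0.16 at 2 h, -0.25 ± 0.16 at 4 h and 0.28 ± 0.16 at 8 h. Its aldosterone pools at 8 h were all above the vehicle pools, as were those of 9.11% of all genes. The test of a difference between the times did not pass for Spred1 (adjusted p = 0.8881). The second Spred1 probe set differed by -0.56 ± 0.18 at 2 h, -0.09 at 4 h and -0.07 at 8 h, and the dim one by -0.22 at 8 h, none past the threshold. Neither shared the direction at 8 h. At 2 h the highest vehicle value of the second set, 7.48, is that of the library that stands apart. The intervals of the 5 genes leave room for differences of the sizes they span, and 3 arrays a group limit how small a difference can be called.

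**Figure D4:**
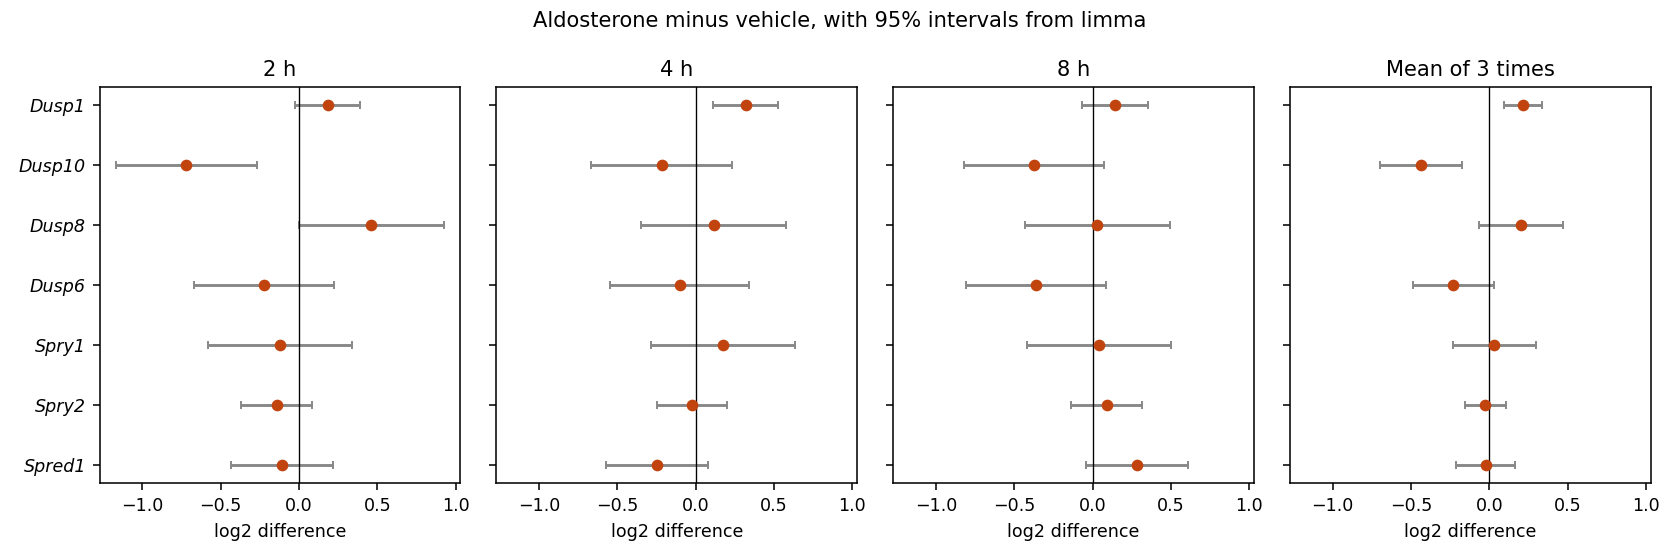
Log2 difference of aldosterone minus vehicle (horizontal axis) for the 7 tested genes at 2, 4 and 8 h and in the mean of the 3 times, with 95% intervals from limma over 3 pools a group. In the mean the intervals of Dusp1 (0.09 to 0.34) and Dusp10 (-0.70 to -0.18) lie to one side of 0, and neither passed the threshold adjusted over all genes.

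The genes that ERK and the other MAP kinases induce were followed as a list of 26, of which 22 were tested. From 2 to 4 h in vehicle 6 rose, 9 fell and 7 did not pass, where 14.6% of all genes rose and 25.6% fell. From 4 to 8 h 3 rose and 9 fell, where 20.7% of all genes rose and 17% fell. Without vehicle 2 h replicate 1 these counts were 7 and 8, then 3 and 12. The shares of all genes that rose and fell were then 20.1% and 19.7% in the first step, and 26.3% and 21.1% in the second. With aldosterone 9 rose and 10 fell in the first step, where 17.3% of all genes rose and 21.3% fell. In the second step 2 rose and 11 fell, where 21.0% of all genes rose and 16.6% fell. Without vehicle 2 h replicate 1 it was 4 and 11, where 27.2% of all genes rose and 20.6% fell. Jun, an AP-1 subunit, fell by 2.17 ± 0.12 from 2 to 4 h in vehicle, whereas the cytokine genes Il11 and Lif rose by 2.64 ± 0.18 and 3.30 ± 0.23. From 4 to 8 h in vehicle Fos, another AP-1 subunit, fell by 3.14 ± 0.18. Fosb, also an AP-1 subunit, went from a mean of 9.13 to between 2.87 and 2.92. Those later values lie under the level of 4, so only a fall from 9.13 to below 4 can be stated for it. The list's median change in vehicle was -0.17 and then -0.35, beside -0.13 and 0.03 for all genes. Without vehicle 2 h replicate 1 the change in the first step was -0.13 for the list and -0.02 for all genes. Of this list Il11 alone was called for aldosterone in the mean over times, where it was lower by -0.56 ± 0.10 (adjusted p = 0.008325), and without vehicle 2 h replicate 1 the list had 2 such genes.

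Further upstream, 8 of 19 tested growth factor and receptor genes rose and 4 fell from 2 to 4 h in vehicle. From 4 to 8 h 3 rose and 6 fell, where 20.7% of all genes rose and 17% fell. Without vehicle 2 h replicate 1 the later counts were 5 and 7, where 26.3% of all genes rose and 21.1% fell. Errfi1, a feedback inhibitor of the EGF receptor, rose by 0.94 ± 0.10 in the first of these steps, and Edn1, the endothelin precursor, fell by 2.11 ± 0.26 in the second. Of 19 tested genes of the ERK cascade itself, 4 rose and 6 fell from 2 to 4 h in vehicle. Without vehicle 2 h replicate 1 those counts were 5 and 2, and the shares of all genes that rose and fell went from 14.6% and 25.6% to 20.1% and 19.7%. Map2k1, which encodes the ERK kinase MEK1, rose by 1.84 ± 0.23 in vehicle and by 1.40 ± 0.23 with aldosterone over that step. Of 21 tested JNK and p38 cascade genes, 7 rose and 4 fell in vehicle (8 and 3 without vehicle 2 h replicate 1), among the latter Gadd45b, a stress-induced activator of that cascade, which fell by 1.44 ± 0.13 and then by 2.62 ± 0.13 from 4 to 8 h.

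Of that JNK and p38 list, 3 genes passed for aldosterone at 8 h. The kinase genes Map3k6 and Map3k8 were higher by 1.28 ± 0.21 and 1.13 ± 0.22, and Gadd45a, a relative of Gadd45b, was lower by -0.55 ± 0.13 (adjusted p = 0.003644, 0.01239 and 0.04889), with 1.0% of all genes called. Map3k6 was at 7.80 to 8.20 with aldosterone and at 6.11 to 6.96 in vehicle, without overlap, where 9.11% of all genes were so separated upward. A further list held other dual-specificity phosphatases and Sprouty relatives, with some genes outside those families: Lgals9, Peak1, Ppm1a, Ppp2ca, Ptpre, Rasa1 and Sh3bp5. Of its 15 tested genes 0 passed for aldosterone at any time. Over time in vehicle, 2 rose and 3 fell from 2 to 4 h, and 3 rose and 5 fell from 4 to 8 h, and without vehicle 2 h replicate 1 the counts were 3 and 2, then 5 and 5. With all 18 samples that is 5 of 15 called in the first step and 8 of 15 in the second, against 40.2% and 37.7% of all genes. Without that library 39.8% and 47.4% of all genes were called. The 2 genes that rose in the first step were Peak1 and Ptpre, both outside those families. In the second step Peak1 and Ptpre rose and Lgals9 and Ppp2ca fell, so the counts are not those of the families alone. Dusp16, a JNK phosphatase of the same subfamily as Dusp8 and Dusp10, fell by 1.16 ± 0.19 in vehicle and by 1.07 ± 0.19 with aldosterone from 2 to 4 h, and Dusp3, a small atypical phosphatase, fell at both steps in both cultures.

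**Figure D5:**
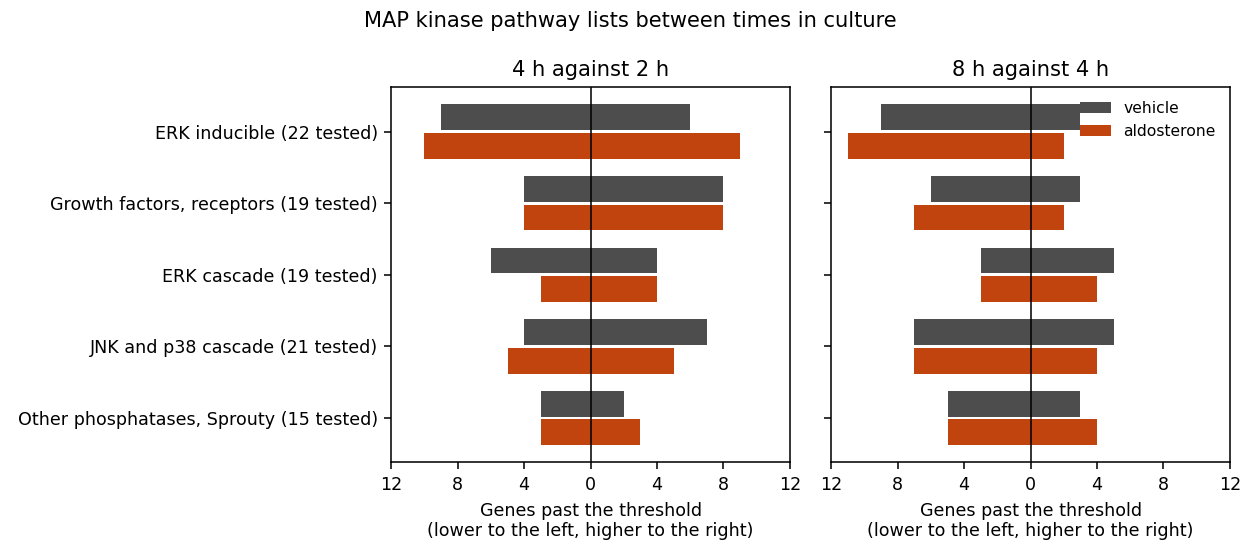
Number of genes past the adjusted threshold (horizontal axis, lower to the left of 0 and higher to the right) in 5 MAP kinase lists, for 4 h against 2 h and 8 h against 4 h, in vehicle (grey) and aldosterone (orange). In the ERK inducible list 9 vehicle genes fell between 4 and 8 h and 3 rose.

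The tested genes did not follow a common course over the 18 samples. As a description over samples that share their times, Pearson's r between pairs ran from -0.87 (Dusp1 and Spred1) to 0.88 (Dusp1 and Spry1). Outside the group, the gene whose values were most like those of Dusp1 was Fos (r = 0.99), followed by Nr4a1, an orphan nuclear receptor of the immediate early class (r = 0.99). Fos lay between 14.4 and 14.9 in the vehicle pools at 2 h and between 8.91 and 9.23 at 8 h. Spred1 was most like Csf2, which encodes the growth factor GM-CSF (r = 0.97), and then Riok2 (r = 0.96). For Dusp6 the nearest were Rp9 (r = 0.89) and Rrm2b (r = 0.88), for Dusp8 Klhl5 (r = 0.94) and Hnmt (r = 0.91), and for Dusp10 Meis1 and Col19a1 (r = 0.93 each). For Spry1 they were Ces1d and Hadh (r = 0.96 each), and for Spry2 Ugdh (r = 0.91) and Map3k1 (r = 0.89).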

How the data were processed

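RNA of 18 aorta samples was measured on 1-colour Affymetrix arrays with biotin-labelled cRNA, per the labels' protocols. The authors deposited log2 values; GCRMA is the tool that the submitters' processing notes name, its version and settings are not given, and raw array files were not used here. GCRMA pulls dim probe sets towards a low floor, which compresses differences near it.

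Of 22690 probe sets, 20380 belong to 1 gene in the platform annotation and are no control. Those above 4 in at least 3 samples (11236) were kept, and the probe set with the highest mean stood for its gene, giving 7092 genes. R 4.3.3 and limma 3.58.1 were used to fit 1 mean per group over all 18 samples, with the prior variance allowed to depend on intensity (degrees of freedom: 12 residual, 17.2 in total), and the fit was tested on simulated data. There were 9 comparisons. Where every sample of the later group was at or under 4, the fold is a lower bound, from the mean of the earlier group to the level of 4. Replicates are separate pools per the labels. Same-numbered pools were not paired.

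The genes, lists and alternatives were chosen with earlier results of these data known. Named genes are all members, up to 3 genes per list with the smallest p, and the 2 genes most like each member by Pearson's r. Promoters come from RefSeq, GRCm38.p6. Alternatives were the filter, the probe set rule, the scaling, the variance prior, array weights, the samples fitted, a replicate block and each replicate left out.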

Additional observations from a re-analysis of the deposited data

How the results depend on the processing

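Of 63 results for single genes under up to 28 alternatives, 1689 of 1732 values kept their side of the threshold and any direction, 13 lost a call, 6 gained one and 24 changed sign, all of the latter uncalled. Of 500 alternative values for 18 counts of calls, 462 stayed within 1.5 times the count reported. The feedback genes called over the time steps varied between 4 and 6 from 2 to 4 h (4 with a filter at 6), and from 4 to 8 h between 2 and 3 in vehicle and 2 and 4 with aldosterone. The number of genes called at 2 h was 5, and became 17 without a filter, 2 with a filter at 6, 10 with the mean of probe sets, 8 with every probe set and also 8 with a further quantile normalization, 12 with median centring, 54 with array weights, 0 with only the groups compared (782 genes had an unadjusted p under 0.05 in the limma fit of all groups), and 1 to 29 without single replicates. At 4 h it was 17, and 11 without the trend, 9 without a filter, 42 with array weights, 8 with only the groups compared and 5 to 32 without single replicates. At 8 h it was 71, and 114 with every probe set, 222 with array weights and 33 to 111 without single replicates. In the mean of times it was 78, and 128, 260 and 53 to 146 in the same order, and of the feedback genes 1 was called after quantile normalization and 2 with array weights. Among single replicates left out, the highest of these counts came without vehicle 2 h replicate 1, and the lowest at 2, 4 and 8 h without replicate 2 of the aldosterone group of that time. The test between times called 11, and 17 with every probe set and 29 with array weights. Vehicle 4 h against 2 h called 2852, and 1331 with only the groups compared. The cause of these shifts was not tested.

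Signs turned as follows. With median centring, which moved the median of all genes at 2 h by 0.14, Spry1 at 2 h was 0.025, Spry2 0.0021 and Spred1 0.037, and in the mean Spry2 was 0.027 and Spred1 0.028; Spry1 at 2 h was 0.015 after quantile normalization too. The share of higher genes among the calls at 2 h was 60% and became 83.3% with median centring and 87.5% after quantile normalization. For 4 h against 2 h in vehicle Dusp10 was 0.077 with array weights, and -0.47 to 0.0072 without single replicates. Spred1 at 8 h against 4 h in vehicle was 0.19 with the mean of probe sets. Without single replicates Spred1 at 2 h was -0.20 to 0.029, and at 4 h Dusp6 was -0.25 to 0.048, Dusp8 -0.023 to 0.19, Spry2 -0.12 to 0.070 and Spry1 -0.11 to 0.35. In the mean Spry1 was -0.063 to 0.090, Spred1 -0.070 to 0.023 and Spry2 -0.057 to 0.0058, and Dusp8 from 4 to 8 h was -0.040 to 0.17 in vehicle and -0.0018 to 0.025 with aldosterone.

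Same-numbered pools correlated above 0.1 in 3 of 21 pairs, from -0.19 to 0.28, so the numbers were not taken to pair them; with the replicate block the counts were 5, 18, 67 and 76 genes at 2, 4 and 8 h and in the mean, and 6, 3, 6 and 3 feedback genes over the time steps. For Dusp8, and for Spry1 in vehicle, values under 4 leave only a bound on the fall, and Dusp2 stayed below the filter. The fall of Spry1 with aldosterone uses values under 4 too.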
